A study of Mus musculus with 30 samples.

Results

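Titin, plectin and 7 further genes of the cardiac Z-disc and its cytoskeleton were followed in the left ventricles of 30 mice. The 9 genes, *Ttn*, *Plec*, *Nebl*, *Ldb3*, *Flnc*, *Des*, *Mypn*, *Actn2* and *Tcap*, were chosen by name and with measured values of the same hearts in view, namely their levels and group differences in both tables, so those levels and differences are given as a description and no finding is drawn from their tests. The table of the peptide study holds 49671 genes and that of the antibody study 56386, for which 142647 transcripts were summed to genes and 55 of them belong to *Ttn*, *Ldb3* and *Plec*. All 9 genes were in both tables and all 9 were kept by the expression filter, which asked for an average of 10 counts or more in the hearts of a study.

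In the peptide study, male wild-type C57BL6J mice were given daily intraperitoneal injections of Aβ42, the aggregating form of the amyloid beta peptide (7 mice), or of ScrAβ42, a peptide of scrambled order (7 mice). Injections began at 12 weeks of age by the labels, the top of the age range in the study's methods, and lasted 4 weeks. The labels give 1 mg of peptide per day where the study's methods give the same number in micrograms. In the antibody study, male wild-type C57BL6J mice received 3D6, an antibody that neutralises Aβ42 (8 mice), or a control antibody (8 mice). The study's methods say that every mouse of the antibody study was fed a high-fat diet, which is therefore shared by both of its groups. By the same methods these mice were first examined at 12 weeks of age. Diet and weekly intraperitoneal antibody began 1 week later. Their treatment lasted longer than the 4 weeks of peptide, so they were older when killed. The sample labels add no diet to these mice and carry the text on peptide injections for all samples. The comparisons ask how more circulating Aβ42, and its neutralisation in obesity, affect the heart. Each heart comes from its own mouse and is named by the mouse number in its label, such as Abeta42_3457. RNA came from homogenised ventricle, so fewer cardiomyocytes and less RNA per cardiomyocyte cannot be told apart here.

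Sarcomeres, the contractile units of muscle, are bounded by Z-discs, where actin filaments of opposite polarity are crosslinked. Titin, the largest known protein, runs from the Z-disc to the M-band and sets much of the passive stiffness of the relaxing ventricle. Around the Z-disc, desmin filaments tie neighbouring myofibrils to each other, to costameres at the cell membrane and to mitochondria, and plectin links desmin to these structures. Inherited variants of most of these genes cause cardiomyopathy.

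Counts were scaled by the TMM method and are given as CPM, the count of a gene scaled to a common library size. Library totals ran from 4478991 to 6015767 counts with the peptides and from 6397192 to 8310478 counts with the antibodies. Hearts stood apart in both studies. Abeta42_3457 and ScrAbeta42_3448 held the lowest shares of counts from the mitochondrial genome in the peptide study, at 12.9% and 13.8% against 17.3% to 22.2% in the other hearts. The 5 genes used to mark atrial tissue were *Myl7*, *Sln*, *Mybphl*, *Bmp10* and *Myl4*, and their summed level reached 8420 CPM in Abeta42_3457 and 3660 CPM in ScrAbeta42_3448. It ranged from 12.4 to 8420 CPM with a median of 1160 CPM in the Aβ42 group, and from 3.82 to 3660 CPM with a median of 10.5 CPM in the ScrAβ42 group. In the antibody study it ranged from 1.05 to 668 CPM with 3D6 and from 0.821 to 2780 CPM with the control antibody, with up to 4 of the 5 markers at 0 in a heart. Control antibody mouse 22 had the lowest mitochondrial share of its study, 25.9%. The 10 markers of working cardiomyocytes were present in every heart, between 55600 and 111000 CPM in sum in the peptide study, with the lowest sum in Abeta42_3457.

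*Ttn* took the most counts of the 9 genes, on average 0.488% of all counts with the peptides and 0.334% with the antibodies. Together the 9 genes took 1.44% of counts (range 1.17% to 1.61%) and 0.945% (range 0.852% to 1.02%). These are shares of unscaled counts, and the difference between the studies was not tested. Counts from the mitochondrial genome took 12.9% to 22.2% of the total with the peptides and 25.9% to 37.8% with the antibodies. Their part in the difference was not tested either. Per kilobase of the transcript with the most counts, the order was different. *Tcap*, which encodes the titin cap telethonin, stood at 1940 ± 353 CPM per kilobase (SD, n = 14) in the peptide study, above *Ldb3* at 836 ± 104, *Des* at 824 ± 147 and *Actn2* at 789 ± 123. The last 3 of these lay within each other's spread. The order of *Ldb3* depends on the length used, since its leading transcript holds 58.1% of its counts and a longer one most of the rest. With each transcript at its own length, as divided in the antibody study, *Ldb3* stood at 633 ± 78.9 CPM per kilobase, below *Actn2* at 845 ± 132 and *Des* at 833 ± 149. *Ttn* followed at 60.2 ± 9.64 CPM per kilobase, with *Flnc* at 56.7 ± 10.8, *Mypn* at 56.6 ± 10.5, *Nebl* at 36.7 ± 4.30 and *Plec* at 28.7 ± 4.11. *Ttn*, *Flnc* and *Mypn* were not separable by their spread. With each transcript at its own length *Ttn* stood at 93.8 ± 15.0 and *Nebl* at 71.1 ± 8.33 CPM per kilobase, so that *Nebl* came before *Flnc* and *Mypn*, while *Plec* was again last at 29.6 ± 4.25. In the antibody study *Tcap* was again first and *Des*, *Ldb3* and *Actn2* next, at 1153 ± 467, 543 ± 56.0, 508 ± 68.6 and 494 ± 39.7 CPM per kilobase (SD, n = 16). There *Ldb3* was at 383 ± 40.4 with each transcript at its own length. *Plec* was not last in the antibody study, at 31.6 ± 3.705 CPM per kilobase, above *Mypn* at 24.9 ± 7.26 and *Nebl* at 19.8 ± 7.44. With each transcript at its own length, *Mypn* was last there at 25.5 ± 7.07 and *Plec* stood at 32.7 ± 4.56. The spreads of *Plec* and *Mypn* overlapped.

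**Figure D1:**
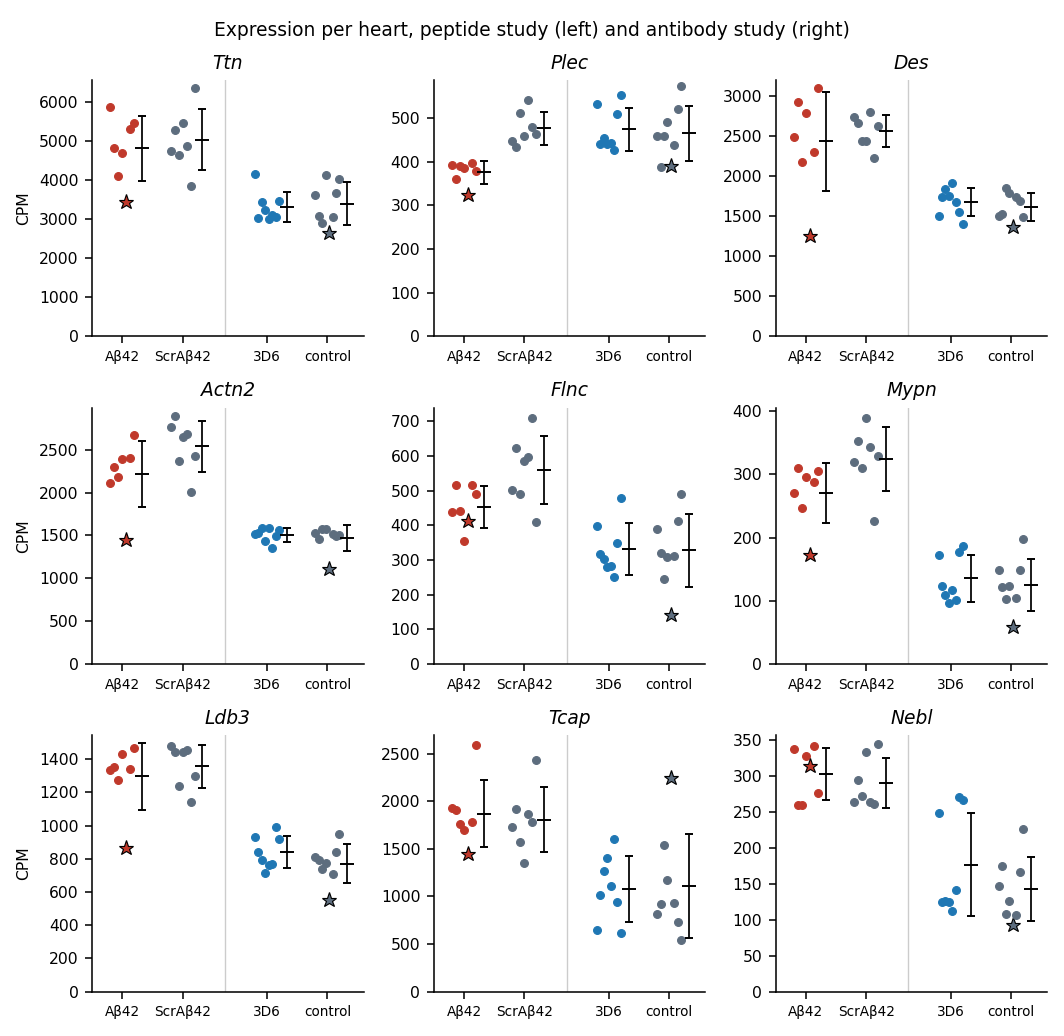
Expression of the 9 genes in each heart, in CPM from 0 on the vertical axis, with the 2 groups of the peptide study left of the grey line and those of the antibody study right of it. Points are hearts, black bars are the mean ± SD, and stars mark Abeta42_3457 and control antibody mouse 22. Only for *Plec* in the peptide study do the groups not overlap.

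*Plec*, which encodes the cytolinker plectin, showed the clearest separation between the peptide groups. Its gene spans 76170974 to 76232574 on the minus strand of chromosome 15 (GRCm38). With Aβ42 the lowest heart had 323.5 CPM, the median was 385.5 CPM and the highest heart had 398 CPM. With ScrAβ42 the lowest, median and highest were 434, 462 and 542 CPM. Every Aβ42 heart was thus below every ScrAβ42 heart, and the gap between the nearest hearts, 398 and 434 CPM, was set by Abeta42_3458 and ScrAbeta42_3442. Of the 11985 genes tested, 4 (0.0334%) had all Aβ42 hearts below all ScrAβ42 hearts, and *Plec* was 1 of them, but since the gene was picked with these values known nothing is read from that count. The means were 375 ± 25.9 CPM and 476 ± 38.3 CPM (SD, n = 7 each), a log2 fold change of -0.34 (standard error 0.07) or a ratio of 0.788. By edgeR's quasi-likelihood test the unadjusted p was 0.000236, eighth of 11985 genes, and the Benjamini-Hochberg adjusted p was 0.353. DESeq2 gave an adjusted p of 0.000367 for the same difference, and 0.1% of genes passed by that tool. The log2 fold change stayed between -0.37 and -0.31 whichever heart was left out, and was -0.33 with a score of the 5 atrial markers as a covariate.

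Other genes of the Z-disc and its links were spread around these values. *Flnc*, filamin C, an actin crosslinker that connects Z-discs to the membrane (chromosome 6, 29433256 to 29461883), was at 354, 442 and 517 CPM with Aβ42 and at 411, 587 and 711 CPM with ScrAβ42 for the lowest, median and highest hearts. The groups overlapped, since 3 of the 7 ScrAβ42 hearts lay at or below the highest Aβ42 heart. Its log2 fold change of -0.31 had a standard error of 0.12, and edgeR gave an unadjusted p of 0.0211 and an adjusted p of 0.702. *Mypn*, myopalladin, which binds nebulette, α-actinin and the ankyrin repeat protein CARP (chromosome 10, 63115795 to 63203952), had 173, 288 and 309.7 CPM with Aβ42 and 226, 329 and 389 CPM with ScrAβ42. The lowest heart of each group was the one with the highest summed CPM of atrial markers in that group. On the log2 scale the difference for *Mypn* was -0.26 (standard error 0.13, edgeR adjusted p = 0.763). *Actn2*, the α-actinin that crosslinks actin and titin in the Z-disc (chromosome 13, 12269426 to 12340760), had 1453, 2301 and 2678 CPM with Aβ42 and 2002, 2644 and 2900 CPM with ScrAβ42. For *Actn2* it was -0.20 (standard error 0.12, edgeR adjusted p = 0.815), again with the same pair of hearts lowest.

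*Ttn* itself (chromosome 2, 76703980 to 76982547, minus strand) did not separate the peptide groups. Its lowest, median and highest hearts had 3441.2, 4819 and 5881 CPM with Aβ42 and 3863, 4872 and 6375 CPM with ScrAβ42. The log2 fold change was -0.07 with a standard error of 0.13, so that 2 standard errors to either side span -0.33 to 0.20. *Des*, the intermediate filament desmin (chromosome 1, 75360329 to 75368579), spread far more with Aβ42, from 1256 to 3099 CPM, than with ScrAβ42, from 2226 to 2800 CPM, and its log2 fold change was -0.07 (standard error 0.16). The low end was Abeta42_3457 alone, since the next Aβ42 heart had 2176 CPM. *Ldb3*, the PDZ and LIM protein Cypher or ZASP that anchors α-actinin (chromosome 14, 34526603 to 34588682), differed by -0.07 on the log2 scale (standard error 0.11). *Nebl*, the nebulin relative nebulette (chromosome 2, 17343909 to 17731464), had 260.0, 315 and 341 CPM with Aβ42 and 261, 272 and 344 CPM with ScrAβ42, a log2 fold change of 0.06 (standard error 0.09). *Tcap* (chromosome 11, 98383811 to 98384953) differed by 0.05 (standard error 0.14). For these 5 genes the difference between groups was smaller than the spread among hearts of 1 group.

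Counted over the list, 7 of the 9 genes had a lower mean with Aβ42, where 49.5% of all genes tested did, and 2 of the 9, *Plec* and *Flnc*, had an unadjusted p under 0.05, where 6.51% of all genes did. None of the 9 had an adjusted p under 0.05 by edgeR, and 0% of all genes did. The median log2 fold change was -0.07 over the 9 genes and 0.00154 over all genes. Of the 10 markers of working cardiomyocytes, 8 were lower with Aβ42, with a median of -0.11. Because the genes were picked with this contrast known, these counts are a description of the list. The direction also rested in part on 1 heart. Without Abeta42_3457, 4 of the 9 genes were lower, and the log2 fold changes of *Ttn*, *Ldb3* and *Des* were 0.000865, 0.01 and 0.04. Without any other single heart, 7 or 8 of the 9 were lower.

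**Figure D2:**
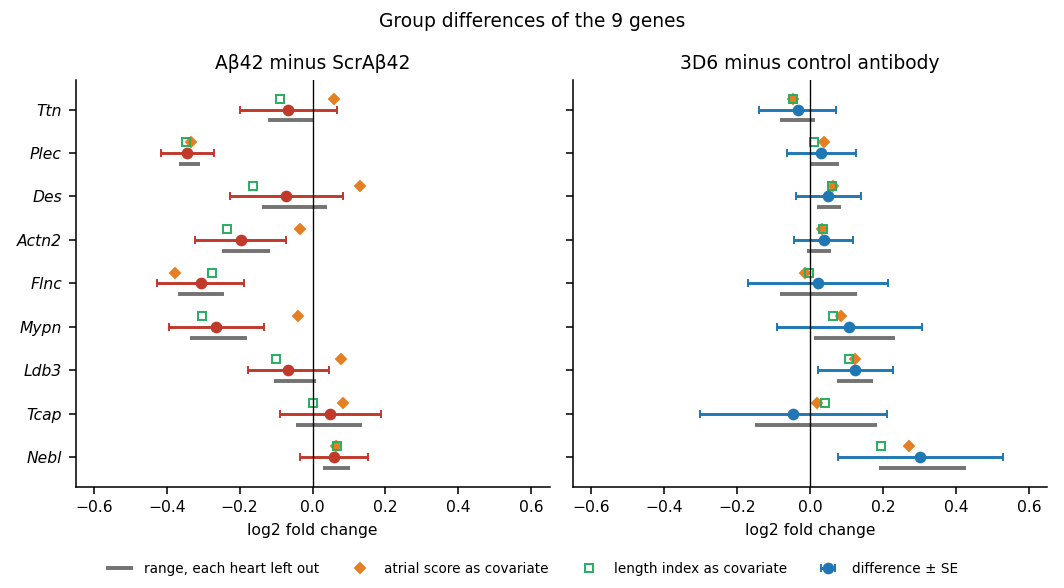
Log2 fold changes of the 9 genes, treated minus control, on the horizontal axis, for Aβ42 (left) and 3D6 (right). Circles are the edgeR values with bars of 1 standard error, grey lines the range when each heart is left out in turn, diamonds the values with the atrial marker score and squares those with the length index as a covariate. *Plec*, *Flnc*, *Mypn* and *Actn2* stay left of 0 under each of these settings in the peptide study.

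Atrial signal moved with part of the list in the peptide study. All 5 atrial markers had a higher mean with Aβ42, 1 of them with an unadjusted p under 0.05, where 6.51% of all genes had one. The score is the mean z value of log2 CPM of these markers. Across the 14 hearts, Spearman's rho between the score and log2 CPM was -0.73 for *Mypn*, -0.68 for *Des*, -0.67 for *Actn2* and -0.62 for *Ldb3*. Without the 2 hearts farthest from the median score, these became -0.59, -0.50, -0.52 and -0.49. For *Plec* the rho was -0.44, or -0.27 without these hearts, and for *Ttn* it turned from -0.15 to 0.33. The points share treatment group as well as atrial signal, so these are descriptions. When the score entered the fit, the differences of *Mypn* and *Actn2* were both -0.04, while those of *Des* (0.13), *Ttn* (0.06) and *Ldb3* (0.08) lay above 0. That of *Plec* was -0.33, near the -0.34 without the score, and that of *Flnc* was -0.38, against -0.31 without it. Under this setting 4 of 9 genes were lower. Mean levels of markers of other cell types differed between the peptide groups too. All 5 adipocyte, all 5 mesothelial and all 6 smooth muscle markers were higher on average with Aβ42, and all 5 blood markers were lower. The summed smooth muscle markers ran from 225 to 2370 CPM with Aβ42 and from 242 to 506 CPM with ScrAβ42, with the highest value in Abeta42_3457. The next Aβ42 heart, Abeta42_3455, had 503 CPM. For the smooth muscle markers the medians of the sum went the other way, at 295 CPM with Aβ42 and 318 CPM with ScrAβ42. None of these parts was tested.

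**Figure D3:**
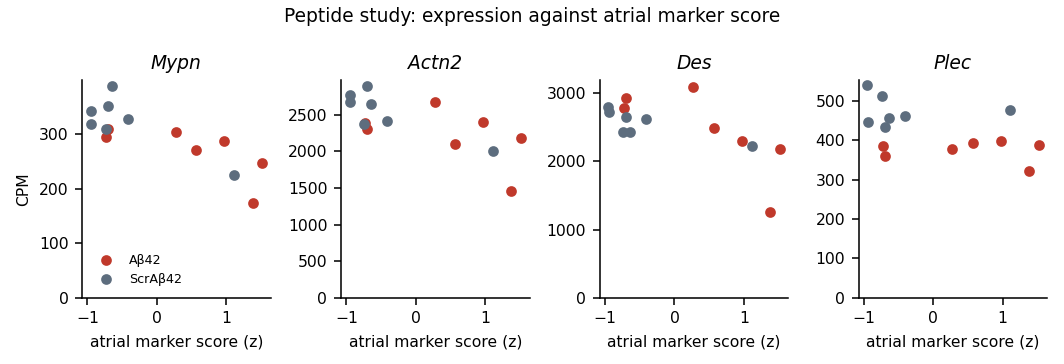
CPM of *Mypn*, *Actn2*, *Des* and *Plec* (vertical axes, from 0) against the atrial marker score (mean z of 5 genes, horizontal axes) in the 14 hearts of the peptide study, coloured by group. The rho over all hearts was -0.73 for *Mypn* and -0.44 for *Plec*, and ScrAbeta42_3448 is the 1 control heart with a score above 0.

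In the antibody study, none of the 9 genes separated the groups, and 0% of the 12274 genes tested did. *Plec* had 425, 448 and 553 CPM with 3D6 and 388, 458 and 573.5 CPM with the control antibody for the lowest, median and highest hearts. Its log2 fold change was 0.03 with a standard error of 0.09, and 2 standard errors to either side span -0.16 to 0.22. *Ttn* had 3004, 3168 and 4161 CPM with 3D6 and 2649, 3348 and 4137 CPM with the control antibody, a log2 fold change of -0.03 (standard error 0.11). The groups of both genes covered nearly the same range. *Nebl* had the largest difference of the list, 111.5, 133 and 271 CPM against 92.9, 136 and 227 CPM, with means of 177 ± 71.5 and 143 ± 44.6 CPM (SD, n = 8 each). The log2 fold change of 0.30 had a standard error of 0.23 (edgeR unadjusted p = 0.197, adjusted p = 0.946), and the difference was smaller than the spread between hearts. The medians of *Nebl* were nearly equal, and 3D6 mice 4, 7 and 12 held the 3 highest values of the study.

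The other Z-disc genes gave smaller differences with 3D6. The log2 fold changes were 0.12 (standard error 0.10) for *Ldb3*, 0.11 (0.20) for *Mypn*, 0.05 (0.09) for *Des*, 0.04 (0.08) for *Actn2*, 0.02 (0.19) for *Flnc* and -0.05 (0.26) for *Tcap*. In all, 7 of 9 genes had a higher mean with 3D6, where 47.4% of genes tested did, and none of the 9 had an unadjusted p under 0.05, where 3.64% did. Markers of other cell types had lower means with 3D6, namely all 6 endothelial markers (1 with an unadjusted p under 0.05), all 7 fibroblast, all 5 blood and all 4 atrial markers tested. For the atrial markers the medians went the other way, at 98.5 CPM in sum with 3D6 and 2.88 CPM with the control antibody. Control antibody mouse 15 alone had 2780 CPM. The summed endothelial markers ran from 634 to 780 CPM with 3D6 and from 677 to 1060 CPM with the control antibody, and the summed blood markers from 824 to 1930 CPM and from 850 to 2690 CPM. Control antibody mouse 22 held the highest value of both, and their part in the values of the 9 genes was not tested. By counts of the total instead of TMM scaling, 4 of the 9 were higher, and the differences of *Plec*, *Actn2* and *Flnc* changed sign. The median log2 fold change over all genes tested was then -0.0569, against -0.0098 with TMM, so that genes in general moved down. Without control antibody mouse 22, 6 were higher. That heart was the lowest of its study for *Ttn*, *Nebl*, *Ldb3*, *Flnc* (142 CPM), *Des*, *Mypn* (58.7 CPM) and *Actn2* (1108 CPM), and the highest for *Tcap* (2245 CPM).

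Hearts of the antibody study differed along a gradient of transcript length, and the list followed it. For each heart, a length index was computed as Spearman's rho, across 11142 protein-coding genes and without the 9, between transcript length and the deviation of log2 CPM from the mean of the study. It was 0.573, 0.446 and 0.567 in 3D6 mice 12, 4 and 7 and 0.461 in control antibody mouse 8, and between -0.41 and 0.126 in the other 12 hearts. In the peptide study it stayed between -0.197 and 0.178, yet *Des* had a rho of -0.80 with it over the 14 hearts (-0.69 without the 2 hearts farthest from the median index) and *Tcap* one of -0.53 (-0.36). With the index in the peptide fit, 3 of the 9 genes had an unadjusted p under 0.05, as 13% of all genes then did, with *Mypn* (edgeR unadjusted p = 0.0267, adjusted p = 0.319) added to *Plec* and *Flnc*. *Des* then differed by -0.16, and the median of the 9 log2 fold changes was -0.16. In the 16 hearts of the antibody study, rho with the index was 0.77 for *Flnc*, 0.76 for *Nebl*, 0.74 for *Mypn*, 0.70 for *Ldb3*, 0.63 for *Plec* and 0.59 for *Ttn*. It was -0.73 for *Tcap* and -0.71 for *Des*, whose main transcripts have 948 and 3028 bases, and -0.27 for *Actn2* with 3013 bases. *Ldb3* ran with the longer genes although its leading transcript, Ldb3-203, has 1586 bases. A longer transcript, Ldb3-201 with 5119 bases, was at 323 to 360 CPM in 3D6 mice 12, 4 and 7 and control antibody mouse 8. In the other 12 hearts Ldb3-201 was at most 280.5 CPM. Ldb3-203 was at 484 to 521 CPM in those 4 hearts and at 299 to 538 CPM in the other 12. The part of each transcript was not tested. Without the 2 hearts farthest from the median index, rho was 0.70 for *Flnc*, 0.66 for *Nebl*, 0.65 for *Mypn*, 0.59 for *Ldb3*, 0.47 for *Plec*, 0.45 for *Ttn*, -0.37 for *Actn2*, -0.62 for *Tcap* and -0.66 for *Des*. The 9 genes and the index come from the same libraries, and the 4 hearts of highest index included 3 of the 3D6 group. When the index entered the fit, *Nebl* differed by 0.19 with a standard error of 0.08, an unadjusted p of 0.0305 and an adjusted p of 0.817 from edgeR, and 1 of the 9 genes then had an unadjusted p under 0.05, where 5.9% of all genes did. Nothing in the labels gives RNA quality for these hearts, and its part was not tested.

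**Figure D4:**
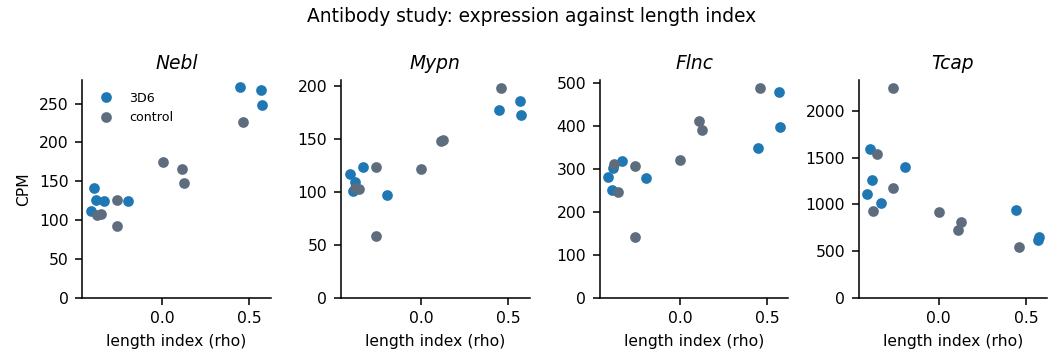
CPM of *Nebl*, *Mypn*, *Flnc* and *Tcap* (vertical axes, from 0) against the length index (rho between transcript length and deviation in log2 CPM, horizontal axes) in the 16 hearts of the antibody study, coloured by group. *Nebl* and *Mypn* are higher in each of the 4 hearts with an index of 0.446 or more than in any other heart. *Flnc* is highest and *Tcap* lowest in 3D6 mouse 7 and control antibody mouse 8. In 3D6 mouse 4, *Flnc* (348.6 CPM) and *Tcap* (942.3 CPM) lie within the range of the hearts with a lower index.

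The 9 genes therefore did not vary as a block. Among the 36 pairs of genes in the antibody study, 22 had a positive Spearman's rho over the 16 hearts, from -0.97 for *Flnc* with *Tcap* to 0.93 for *Flnc* with *Mypn*. *Tcap* ran from 541 to 2245 CPM in the control antibody group, in nearly the opposite order of hearts to *Flnc*. In the peptide study 29 of 36 pairs were positive over 14 hearts, with a median of 0.28 and the highest rho, 0.85, for *Ldb3* with *Actn2*. *Plec* went with the others least, apart from *Nebl*, with a median rho of 0.09 to the other 8 genes, against 0.49 for *Mypn* and 0.47 for *Ttn*. These values describe hearts that share a depth range and, within a group, a treatment.

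Outside the list, the genes whose levels ran most like *Ttn* over the 14 peptide hearts were *Ssh2* (rho 0.96), *Nrd1* (0.94), *Usp9x* (0.93), *Ncor1* (0.91) and *Ankrd17* (0.90), with main transcripts between 3784 and 11887 bases. For *Plec* they were *2900097C17Rik* (0.88), *Habp2* (0.87), *Nop10* (0.86), *Spen* (0.86) and *Snrpa* (0.84). Mean levels were low for *Habp2* (3.72 CPM), *2900097C17Rik* (6.52 CPM) and *Snrpa* (11.7 CPM). These genes were picked as the highest of all genes tested. The peptide groups do not overlap in *Plec*, so its matches cannot be told apart from a difference between groups. In the antibody study *Ttn* was nearest to *9530068E07Rik* (0.88), *Macf1* (0.85), *Akap9* (0.85), *Slc25a51* (0.84) and *Pigs* (0.84), of which *Macf1* encodes another giant plakin. *Plec* was nearest to *Myom1* (0.94), which encodes the M-band protein myomesin, then *Wasf2* (0.92), *Rnf146* (0.92), *Ptprg* (0.91) and *Slc12a2* (0.91). No gene was shared between the studies in these lists.

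Estimated counts per transcript, deposited for the antibody study only, divide *Ttn*, *Ldb3* and *Plec* further. Titin is spliced into forms that differ mainly in the length of the elastic segment, and the shorter cardiac form is the stiffer. Ttn-201, with 192 exons, 81843 bases and 26886 codons, took 92.9% ± 0.958 of the *Ttn* counts in 3D6 mice and 92.9% ± 0.691 in control antibody mice (SD, n = 8 each), and between 91.9% and 94.6% in single hearts. Every base of Ttn-201 is also in Ttn-203, which adds 24981 bases, so reads from shared exons had to be divided by the authors' software. Chosen after the values were seen, Ttn-202 is a short form of 16891 bases with a stretch of 6284 coding bases of its own, and held 4.17% ± 0.345 and 3.99% ± 0.416 of the counts. Ttn-205, which lacks a 2646-base exon of Ttn-201 (chr2:76907308-76909953), held 0.790% ± 0.165 and 0.850% ± 0.243. Of the 25 annotated *Ttn* transcripts, 9 were at 0 in every heart. The opening bases of the 2 stretches that tell these forms apart are shown because reads from them can come from one of the forms and not the other, and both lie on the minus strand of GRCm38, at chr2:76909834-76909953 for the exon absent from Ttn-205 and chr2:76920344-76920463 for the stretch of Ttn-202.
Ttn-201, start of the exon absent from Ttn-205: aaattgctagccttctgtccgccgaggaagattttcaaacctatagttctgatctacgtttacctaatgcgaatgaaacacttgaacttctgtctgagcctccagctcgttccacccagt
Ttn-202, start of its own stretch: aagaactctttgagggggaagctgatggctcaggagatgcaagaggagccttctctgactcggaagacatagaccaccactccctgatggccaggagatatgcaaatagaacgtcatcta

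The *Ldb3* counts fell mainly on a short and a long transcript. Ldb3-203, with 981 coding bases, held 58.0% ± 5.51 with 3D6 and 59.0% ± 5.08 with the control antibody (SD, n = 8 each). Ldb3-201, with 2169 coding bases, held 31.7% ± 3.63 and 30.7% ± 3.72. Both shares thus differed between the groups by about 1 percentage point, less than the spread between hearts. Control antibody mouse 22 stood out by Ldb3-207, a transcript looked at after the values were seen, at 13.95% against at most 5.79% in every other heart. The long forms of this protein are known to end in LIM domains that the short forms lack. The coding end of Ldb3-203, with its stop codon in capitals, and the first coding exon found in Ldb3-201 but not Ldb3-203 mark this fork, at chr14:34561785-34561881 and chr14:34555343-34555528 on the minus strand of GRCm38.
Ldb3-203, coding end: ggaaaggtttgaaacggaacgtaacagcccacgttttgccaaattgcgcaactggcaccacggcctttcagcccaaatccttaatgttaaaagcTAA
Ldb3-201, first coding exon not in Ldb3-203: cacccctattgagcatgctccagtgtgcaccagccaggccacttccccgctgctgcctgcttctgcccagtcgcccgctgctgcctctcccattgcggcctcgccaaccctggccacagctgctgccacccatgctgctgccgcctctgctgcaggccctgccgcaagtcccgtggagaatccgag

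Plectin isoforms differ in their first exon, which is known to direct them to Z-discs, the membrane or mitochondria in muscle. Of 22 *Plec* transcripts, 4 held at least 5% of the counts on average, Plec-206 (33.9%), Plec-217 (29.0%), Plec-215 (19.3%) and Plec-202 (12.2%), and together they held 88.3% to 97.2% of the counts of each heart. They share 98.0% to 99.2% of their bases, and between 113 and 303 bases of each lie in no other of the 4. The other *Plec* transcripts were not compared over these bases. Because reads are assigned among the 4 by stretches as short as this, sequences are printed, with start codons in capitals. These are the coding parts of the first exon of Plec-206, Plec-215 and Plec-202 found in no other of the 4. They lie on the minus strand of GRCm38 at chr15:76229358-76229442, chr15:76200469-76200484 and chr15:76199549-76199660. The bases of Plec-217 that lie in no other of the 4 are all noncoding.
Plec-206: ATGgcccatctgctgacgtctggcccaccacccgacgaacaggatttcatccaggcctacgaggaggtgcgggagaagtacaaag
Plec-215: ATGaagatcgtgcccg
Plec-202: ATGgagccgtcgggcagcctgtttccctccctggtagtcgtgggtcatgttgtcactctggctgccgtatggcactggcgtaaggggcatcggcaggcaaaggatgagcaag

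The division of *Plec* counts among these forms was unsteady from heart to heart. Plec-217 led in 7 hearts, Plec-206 in 6 and Plec-215 in 3. In the control antibody group the share of Plec-217 ran from 1.82% in mouse 15 to 77.2% in mouse 22, and that of Plec-206 from 3.55% in mouse 8 to 64.9% in mouse 3. Plec-217 was at 0 CPM in 3D6 mice 4, 7 and 12, the 3 hearts of that group with the highest length index, but at 408 CPM in control antibody mouse 8, whose index was also high and whose level was the highest of the study. Plec-206 averaged 40.3% ± 15.7 with 3D6 and 27.5% ± 19.3 with the control antibody, and Plec-217 20.9% ± 20.9 and 37.0% ± 29.9 (SD, n = 8 each), so that both differences were within the spread between hearts. Plec-215 averaged 19.8% and 18.9%, and Plec-202 14.2% and 10.2%. Of the 55 transcripts, 10 of *Ttn*, 5 of *Ldb3* and 8 of *Plec* had enough counts to be tested, and none had an adjusted p under 0.05 by edgeR, where 0% of the 20857 transcripts tested did and 2.4% had an unadjusted p under 0.05. The sum over *Plec* transcripts, by contrast, varied by 1.30 times between the lowest and highest hearts with 3D6 and 1.48 times with the control antibody. How reads from the shared exons were divided is uncertain, and the shares are printed for that reason as a description.

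**Figure D5:**
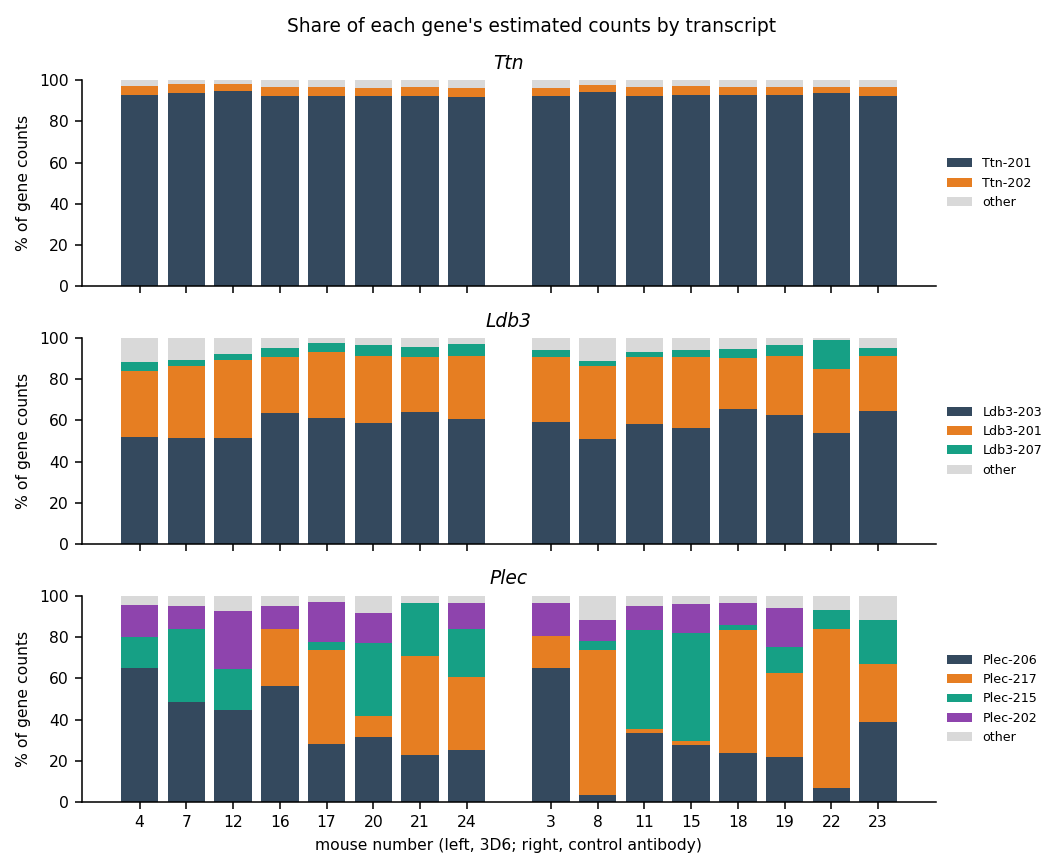
Share of each gene's estimated counts by transcript, in percent on the vertical axis, for *Ttn*, *Ldb3* and *Plec* in the 16 hearts of the antibody study, with 3D6 mice at the left and control antibody mice at the right. Bars sum to 100, grey is all other transcripts, Ttn-201 holds 91.9% to 94.6% in every heart, and the *Plec* colours trade places between hearts of 1 group.

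Another unequal division touched *Actn2*, in transcripts also looked at after the values were seen. In control antibody mouse 22, Actn2-201 was at 622 CPM, Actn2-203 at 311.5 CPM and Actn2-205 at 177 CPM. In the other 15 hearts Actn2-201 held at least 97.4% of *Actn2* counts and Actn2-203 was at most 2.19 CPM. The same heart thus had the lowest total of *Actn2* and a different division of it.

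The genes that work with these 9 were taken from 4 lists of 86 genes. Of the partners of titin and of its turnover, 19 of 20 were tested in each study. In the peptide study 14 of the 19 were lower with Aβ42, where 49.5% of all genes were, and their median log2 fold change was -0.09. Of the 19, 1 had an unadjusted p under 0.05, against 6.51% of all genes, and none an adjusted one. The 1 was *Ankrd23*, an ankyrin repeat protein of the titin elastic segment, at 19.7 ± 5.01 against 28.2 ± 4.59 CPM (SD, n = 7 each; log2 fold change -0.52, standard error 0.17), and the highest was *Myom3*, a myomesin, at 0.17. With 3D6, 13 of 19 were higher, where 47.4% of all genes were, and the median was 0.07. None had an unadjusted p under 0.05, where 3.64% of all genes did. The extremes were *Capn3*, a calpain that binds titin, at 0.28 and *Ankrd23* at -0.18.

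Of 33 further Z-disc genes, 31 were tested. With Aβ42, 22 of 31 were lower (49.5% of all genes were) with a median of -0.09, and 3 had an unadjusted p under 0.05 (6.51% of all genes did), all lower. These were *Xirp1* (log2 fold change -0.39, standard error 0.12), an actin-binding repeat protein of intercalated discs, *Capza1* (-0.31, standard error 0.13), a subunit of the actin capping protein, and *Pdlim1* (-0.27, standard error 0.10), a PDZ and LIM protein that binds α-actinin. The lowest was *Myot*, myotilin, at -0.54 and the highest *Flna*, filamin A, at 0.69, with levels from 166 to 1532 CPM over the 14 hearts. With 3D6, 20 of 31 were higher (47.4% of all genes were) with a median of 0.03, and 2 had an unadjusted p under 0.05 (3.64% of all genes did). These were *Flna* (-0.27, standard error 0.12) and *Actn4* (-0.18, standard error 0.09), the nonmuscle relatives of *Flnc* and *Actn2*, and *Palld*, palladin, was the highest at 0.30.

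Among 13 plakins and intermediate filament genes, 11 were tested in the peptide study. With Aβ42, 5 were lower and 6 higher with a median of 0.13, where 49.5% of all genes were lower. The intermediate filament gene *Nes* had 34.6 ± 5.93 against 46.1 ± 5.998 CPM (SD, n = 7 each; log2 fold change -0.41, standard error 0.11) and the plakin relative *Evpl* 3.10 ± 0.951 against 2.07 ± 0.600 CPM (0.60, standard error 0.24), both with an unadjusted p under 0.05. They were 2 of the 11 genes, where 6.51% of all genes had an unadjusted p under 0.05. *Krt18* was the highest at 0.61. With 3D6, 9 were tested, 4 higher and 5 lower, where 47.4% of all genes were higher. *Nes* was again the lowest at -0.27 (standard error 0.11, unadjusted p = 0.0305 from edgeR) and *Sync*, a desmin-binding protein, the highest at 0.27. Of the 9, 1 had an unadjusted p under 0.05, *Nes*, where 3.64% of all genes did. The mean of *Nes*, which encodes nestin, was thus below that of the respective controls with each treatment, without passing the adjusted test.

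Of 20 costamere genes, which link Z-discs to the membrane and matrix, 19 could be tested with the peptides and 20 with the antibodies, and none had an unadjusted p under 0.05 in either. Their medians were -0.03 and 0.10. *Sntb1* (0.29) and *Sgca* (-0.20) were the extremes with Aβ42, and *Sgcd* (0.58) and *Parva* (-0.11) with 3D6. Over the 4 lists, 53 of 80 tested genes (66.2%) were lower with Aβ42, against 49.5% of all genes, and 6 (7.5%) had an unadjusted p under 0.05, near the 6.51% of all genes. With 3D6, 51 of 79 (64.6%) were higher, against 47.4% of all genes, and 3 (3.8%) had an unadjusted p under 0.05, near the 3.64% of all genes. None had an adjusted p under 0.05 in either study. The lists were chosen with earlier results of these data known, so these counts are a description too.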

How the data were processed

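Ventricular total RNA libraries of 30 mice were analysed, each study on its own. The authors deposited raw counts of Ensembl genes for the peptide study and estimated counts of Ensembl transcripts for the antibody study, neither normalised. Salmon and GRCm38 are named in the submitters' processing notes. Groups came from the labels, and 1 count column of the peptide study that matched no labelled sample was not used. Estimated counts were summed to genes through GENCODE vM21, an earlier release than that in the study's methods, and rounded. It lists 99.5% of the genes and 99.2% of the transcripts.

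Features averaging 10 or more counts in a heart were scaled by TMM and compared in edgeR 4.0.16 (quasi-likelihood test, two-sided, Benjamini-Hochberg over all features). Log2 CPM used a prior count of 2. Scripts were tested on simulated data. Alternatives were DESeq2 1.42.0, limma-voom (limma 3.58.1), RLE factors, no filter, at least 10 counts in every heart, tables without the mitochondrial genome, CPM of the total count, an atrial marker score as a covariate and each heart left out. The length index, its use as a covariate other scalings for counts of genes without overlap and per-length levels over all transcripts were added after the data were seen. The 9 genes and all lists were chosen with earlier results of these data known. Named genes were the 9, transcripts with at least 5% of their gene's counts, the highest, lowest and each gene with an unadjusted p under 0.05 in a list, and the 5 genes most like *Ttn* and *Plec*. Sequences were read from GENCODE vM21 transcripts.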

Additional observations from a re-analysis of the deposited data

Results flagged for a closer look

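In 4 of 50 groups of values, the highest or lowest heart lay farther from the rest than Dixon's limit allows at 95%, where chance alone gives about 1 in 20. *Ldb3* in Abeta42_3457 was at 867.7 CPM, with the next Aβ42 heart at 1275 CPM. This heart has the highest summed CPM of atrial, smooth muscle and adipocyte markers of its study, and its part was not tested. *Tcap* in Abeta42_3460 was at 2589 CPM against 1926 CPM for the next heart. *Ttn* in 3D6 mouse 12 was at 4161 CPM against 3476 CPM, in the heart with the highest length index, 0.573. *Actn2* in control antibody mouse 22 was at 1108 CPM against 1455 CPM, in the heart where *Actn2* counts were also divided differently among transcripts.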

How the results depend on the processing

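In the peptide study 0 genes had an adjusted p under 0.05 by edgeR and 780 an unadjusted one, while DESeq2 called 12 genes, *Plec* among them as the 1 gene of the 9. In the antibody study edgeR called 0 transcripts and DESeq2 called 9. Leaving out each heart in turn gave 0 to 3 genes with an adjusted p under 0.05 in the peptide study, the 3 without Abeta42_3452 and 1 without ScrAbeta42_3448. Genes of the 4 lists with an unadjusted p under 0.05 then ranged from 4 to 10 in the peptide study and from 0 to 7 in the antibody study, the 7 without control antibody mouse 8 and 0 without control antibody mouse 18 or 3D6 mouse 4. The cause of these moves was not tested. Without a filter, unadjusted calls were 1475 against 780 (peptide), 1213 against 447 (antibody genes) and 7350 against 500 (transcripts), where many more features are tested. With the length index as a covariate they were 1557, 724 and 778, 1 of the 9 genes, *Nebl*, had an unadjusted p under 0.05 with 3D6 instead of 0, and 3 instead of 2 with Aβ42, *Mypn* among them. Scaling to total counts split the antibody calls into 91 higher and 438 lower, against 162 and 285. The atrial score split the peptide calls into 302 higher and 579 lower, against 430 and 350. No paired analysis was possible because the mouse numbers of the groups are not shared. Depth was 4478991 to 8310478 counts per heart. The division of *Plec* counts among its 4 main transcripts rests on the 113 to 303 bases of each that lie in no other of the 4.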
